A study of Mus musculus with 6 samples.

Results

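The genes described here are the 19 that were lower in every leukemia library labelled tamoxifen than in every library labelled oil. A named row of the expression table was taken when its mean over the 3 oil-labelled libraries was at least 50 normalised read counts and when its highest tamoxifen-labelled value was at least 1.3-fold below its lowest oil-labelled value, with the mitochondrially encoded mt- genes left out. Of 53618 named rows, 10109 reached that mean, and 19 of these passed (0.188%). The mirror rule, with every tamoxifen-labelled library higher by the same gap, was met by 50 rows (0.495%). The genes were chosen by the values of all 6 libraries, so their differences between the groups are given below as a description, with no test.

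The libraries came from splenocytes of mice that carried AE9a acute myeloid leukemia, sorted as GFP+Lin-c-Kit+, the immature fraction of the leukemia cells, and sequenced as bulk RNA. AE9a is a truncated form of the AML1-ETO fusion protein, delivered to mouse fetal liver cells by an MSCV retrovirus that also encodes GFP, and the resulting leukemia was passed to recipient mice. Both groups held Usp18+/f UBCER-Cre cells, in which one Usp18 allele is floxed and a Cre recombinase driven by the ubiquitin C promoter in all tissues is activated by tamoxifen. Recipients that had fallen sick were injected with oil, which leaves Usp18+/f cells, or with tamoxifen, meant to give Usp18+/Δ cells, and cells were sorted on day 3 after the first injection from 3 mice per group, with 1 library per mouse.

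Of the groups analysed here none received tamoxifen without the floxed allele, so an effect of tamoxifen or of Cre activity and one of the lost allele cannot be told apart. Usp18 itself, the targeted gene and a negative regulator of interferon signaling, had 217, 214 and 176 normalised read counts in the oil-labelled libraries and 477, 329 and 284 in the tamoxifen-labelled ones, against the direction of the labels, and reads of the intact and the deleted allele were not separated. Usp18 is itself induced by interferon, and 29 of 48 genes of the type I interferon response were also higher in every tamoxifen-labelled library than in every oil-labelled one (7.09% of all rows were). The reason for the direction of Usp18 was not tested. All directions below are therefore between libraries as labelled, and "with oil" and "with tamoxifen" refer to these labels. The libraries held 19172471 to 23785143 reads each. The library labelled tamoxifen 1 stood apart: its median correlation with the other libraries was 0.913, against 0.981 to 0.990 for the rest, and 0.00923% of its reads were mitochondrial, against 1.01% to 1.56%. Kit, the receptor used in the sort, had 7512 to 8990 normalised read counts in the oil-labelled libraries and 4687 to 10976 in the others. In bulk RNA, fewer cells of a type and less RNA per cell cannot be told apart.

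By their known functions the 19 genes are a mixed group. They include a heat shock chaperone (Hspa1a), 3 genes for the core histone H2B (Hist1h2bb, Hist1h2bj and Hist2h2be), a mitophagy receptor that is induced by low oxygen (Bnip3), an enzyme of aryl hydrocarbon receptor feedback (Tiparp), a retrovirus restriction factor (Fv1), a heme-binding protein (Hebp1), proteins of the cytoskeleton (Tppp3 and Nebl), an inhibitory receptor of lymphocytes (Klrg1), genes best known from neurons, stomach and germ cells (Shisa6, Gkn3 and Dazl), a ribosomal protein pseudogene (Rpl17-ps3) and 4 gene models without a given name. As background, heat shock factor switches on the HSP70 genes when proteins unfold, and HIF factors switch on Bnip3 when oxygen falls. Most H2B genes are read mainly while DNA is copied, when new chromatin needs histones. Most of their transcripts end in a stem-loop in place of a poly(A) tail.

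**Figure D1:**
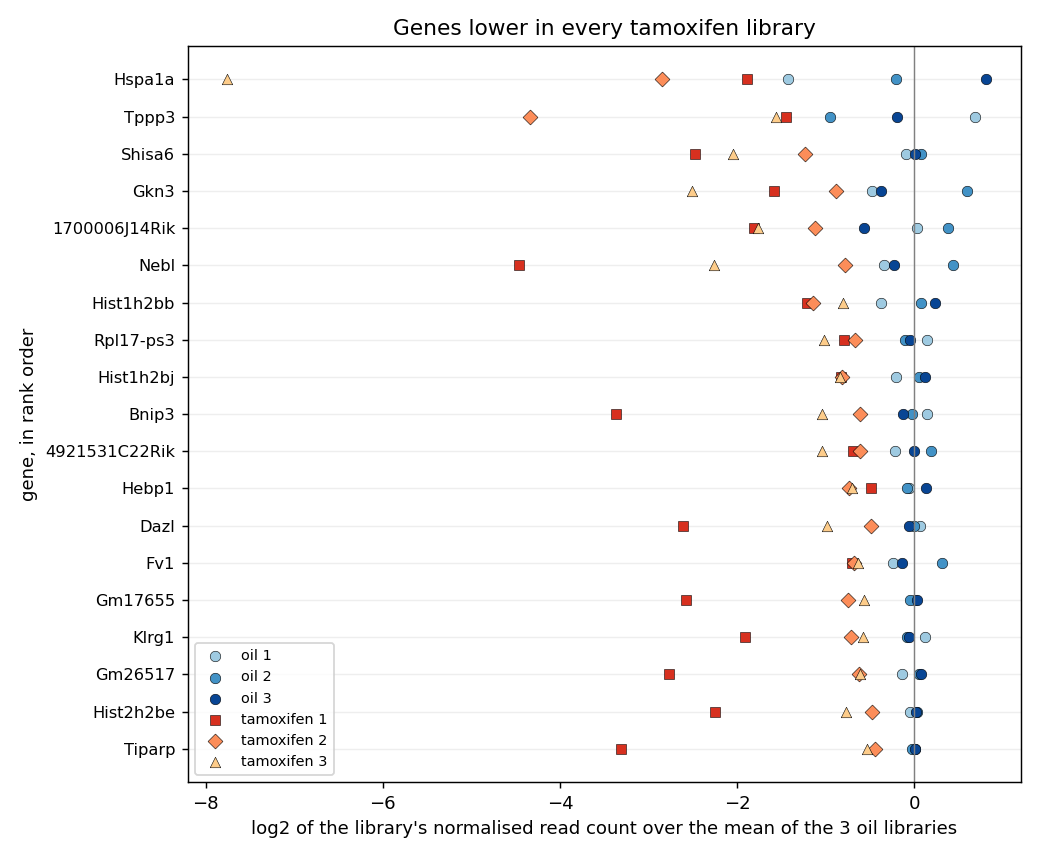
Each row is 1 of the 19 genes in rank order, and each point is 1 library, placed at the log2 of its normalised read count over the mean of the 3 oil-labelled libraries. By the rule every tamoxifen-labelled point lies to the left of every oil-labelled point, and in 8 genes, Nebl, Bnip3, Dazl, Gm17655, Klrg1, Gm26517, Hist2h2be and Tiparp, tamoxifen 1 lies more than 1 log2 unit to the left of the mean of the other two.

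The values that follow are normalised read counts, that is, reads divided by 1 size factor per library, in the order of replicates 1, 2 and 3. Genes were ranked by the log2 ratio of the mean of tamoxifen 2 and 3 over the mean of the oil-labelled libraries, so that tamoxifen 1 did not set the order. The median of this ratio over the 19 genes was -0.81, and that of tamoxifen 1 over oil was -1.89. Over all 10109 rows the same medians were -0.03 and 0.01. Groups that did not overlap, with every tamoxifen-labelled value below every oil-labelled one, were found in 1065 rows (10.5%), so the 1.3-fold gap kept a small share of these. Of the 12298 rows tested by limma, 0 were lower at an adjusted p under 0.05 (0%) and 153 at an unadjusted p under 0.05 (1.24%). Among the 19 genes these counts were 0 and 16, which follows from how the genes were chosen. DESeq2 called 2 rows lower, Shisa6 and 1700006J14Rik, both among the 19, and edgeR called 0, with 109 at an unadjusted p under 0.05.

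Hspa1a, which encodes the stress-inducible chaperone HSP70, ranked first. It had 146, 342 and 691 normalised read counts in the oil-labelled libraries and 106, 54.6 and 1.82 in the tamoxifen-labelled ones. The mean was 393 ± 276 (SD, n = 3) with oil and 54.2 ± 52.1 (SD, n = 3) with tamoxifen. The gene was uneven within both groups, and the lowest oil-labelled library lay 1.37-fold above the highest tamoxifen-labelled one. In tamoxifen 3 the level rested on 2 reads, with an exact 95% Poisson interval of 0.22 to 6.57 normalised read counts that covers counting error only. Against the oil mean, the mean of tamoxifen 2 and 3 was 13.9-fold lower.

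Hspa1a (ENSMUSG00000091971.3) lies on chromosome 17, from 34969190 to 34972156 on the minus strand (GRCm38, GENCODE vM21). Its neighbour Hspa1b encodes nearly the same protein, and over 2209 aligned bases the longest transcripts of both genes were 99.3% identical, so reads could have been assigned to either copy. Hspa1b, named here after its values were seen, had 1402, 3052 and 4372 normalised read counts with oil and 1994, 739.5 and 206 with tamoxifen. Its groups overlapped, since tamoxifen 1 lay above oil 1, but tamoxifen 2 and 3 were below all oil-labelled libraries as for Hspa1a. Hspa1a amounted to 10.4%, 11.2% and 15.8% of Hspa1b in the oil-labelled libraries and to 5.32%, 7.38% and 0.881% in the tamoxifen-labelled ones.

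**Figure D2:**
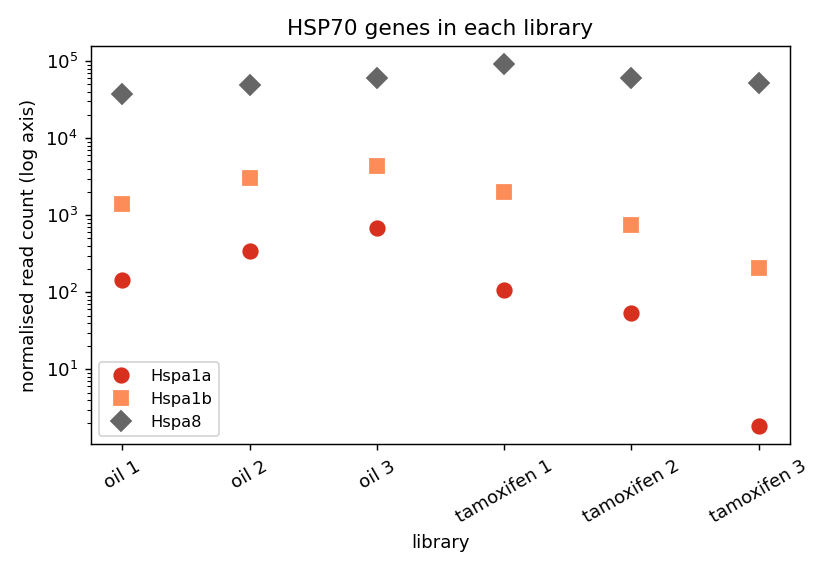
Normalised read counts (log axis) of Hspa1a, its near-identical copy Hspa1b and the constitutive Hspa8 in each of the 6 libraries, 1 point per library. Hspa1a ran from 1.82 in tamoxifen 3 to 691 in oil 3, while Hspa8 stayed between 36963 and 91787 and was highest in tamoxifen 1.

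No other heat shock and protein folding gene of the list had groups as separate as those of Hspa1a. Of the 64 genes of this list with an oil mean of at least 50, Hspa1a alone met the rule (0.188% of all rows did). Lower without overlap between the groups were 2 (3.12%, against 10.5% of all rows), Hspa1a itself and Bag4, the latter with a gap of 1.06-fold. Higher without overlap were 3, as were 717 of all 10109 rows (7.09%). The list's median log2 ratio of tamoxifen 2 and 3 over oil was 0.01. Hspa8, the constitutive relative of Hspa1a, had 36963, 49066 and 59636 normalised read counts with oil and 91787, 61089 and 51662 with tamoxifen, with overlapping groups.

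To show what lies in front of the gene, the 250 bases before the RefSeq start of Hspa1a (GRCm38.p6, chr17:34972157-34972406, minus strand) are printed with the letters GAANNTTC, a paired unit of the heat shock element, in capitals. One match was found on both strands together, 104 to 97 bases before the start, and 6.69% of all 32851 promoters of this length held one.
Hspa1a: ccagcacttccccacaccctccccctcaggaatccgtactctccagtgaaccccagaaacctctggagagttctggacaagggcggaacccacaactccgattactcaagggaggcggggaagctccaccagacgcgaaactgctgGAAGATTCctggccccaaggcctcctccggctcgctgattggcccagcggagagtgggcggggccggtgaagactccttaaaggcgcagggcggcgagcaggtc

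Of the 19 genes, 3 encode H2B, a core histone of the spool around which DNA is wound. Hist1h2bb had 54.8, 75.3 and 83.6 normalised read counts in the oil-labelled libraries and 30.7, 32.3 and 40.9 in the tamoxifen-labelled ones. Hist1h2bj had 185, 221 and 232 with oil and 120.1, 121 and 119 with tamoxifen, and its tamoxifen-labelled libraries differed by an SD of 1.05 around a mean of 120.2. Hist2h2be had 703, 740 and 734 with oil and 153, 521 and 427 with tamoxifen. The first pair lay at a similar level in all tamoxifen-labelled libraries, whereas Hist2h2be was lowest by far in tamoxifen 1.

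The gap between the lowest oil-labelled and the highest tamoxifen-labelled library was 1.34-fold for Hist1h2bb, 1.53-fold for Hist1h2bj and 1.35-fold for Hist2h2be. Hist1h2bb and Hist1h2bj lie in the large histone cluster of chromosome 13, at 23746734 to 23747241 and 22043214 to 22043676, both on the plus strand. Hist2h2be, a variant known from olfactory neurons, lies on chromosome 3 at 96221119 to 96223738. The transcripts of the histone genes are alike, with 92.6% identity between Hist1h2bj and Hist1h2bb over 444 aligned bases and 96.2% between Hist1h2bj and Hist1h2bk, so the share of reads that each copy received depended on how the authors' counting treated reads with several matches, which is not given in the sources used here.

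Among the histone genes, most of those lower without overlap were of the H2B class. Of the 11 H2B genes with an oil mean of at least 50, 3 met the rule, as did 0.188% of all rows. Lower without overlap were 8 (72.7%, against 10.5% of all rows). None of the 5 H1 and 9 H3 genes and 2 of the 7 H4 genes were lower without overlap, and none of these met the rule. The median log2 ratio of tamoxifen 2 and 3 over oil was nevertheless similar in all 4 classes, at -0.73 for H2B, -0.70 for H1, -0.61 for H3 and -0.54 for H4.

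The classes parted in tamoxifen 1. Its median log2 ratio over oil was -1.01 for H2B, 0.84 for H1, 0.91 for H3 and 0.62 for H4. Summed over 16 rows, H2B had 1877, 2316 and 2133 normalised read counts with oil and 1039, 1439.7 and 1346 with tamoxifen. The 10 rows of H3 summed to 896, 1489.6 and 1270.2 with oil and to 2184, 765 and 871 with tamoxifen. The H2B sum was thus lower in each tamoxifen-labelled library, while the H3 sum was lower in tamoxifen 2 and 3 and highest in tamoxifen 1, the library that stood apart. Its part in the difference between the classes was not tested.

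**Figure D3:**
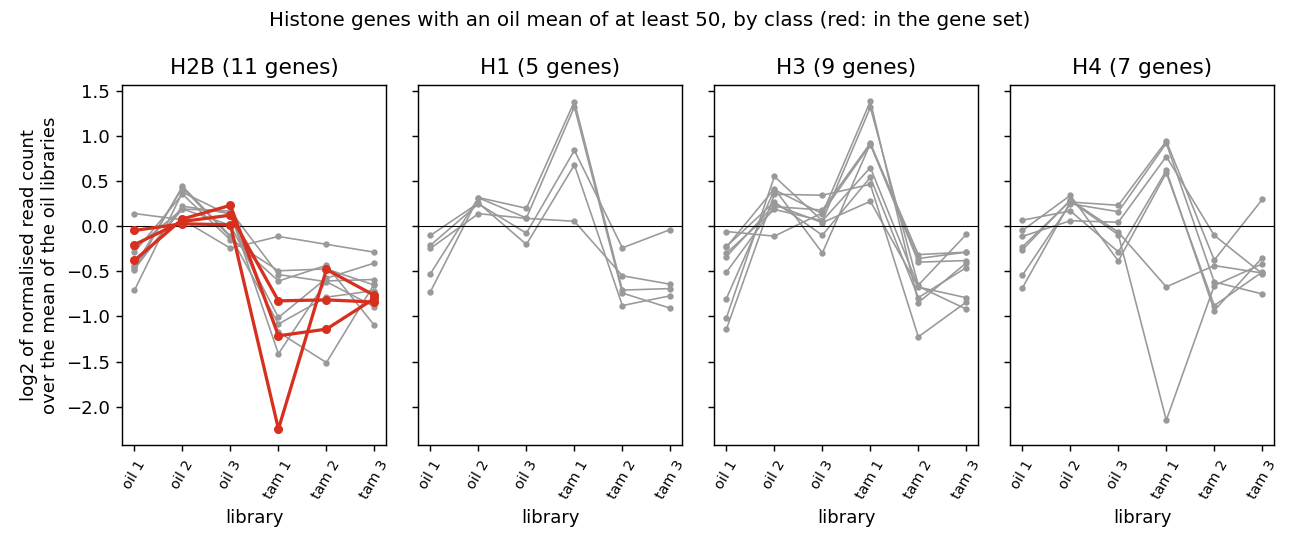
Log2 of the normalised read count over the oil mean for the 32 histone genes of the H2B, H1, H3 and H4 classes with an oil mean of at least 50, with 1 point per library and lines that join the values of 1 gene. The 11 H2B genes, 3 of them in the set (red), lie below 0 in all tamoxifen-labelled libraries, whereas H1, H3 and most H4 genes lie above 0 in tamoxifen 1 (tam 1) and below 0 in tamoxifen 2 and, with the exception of Hist1h4k, in tamoxifen 3.

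Promoters of both H2B genes of chromosome 13 are shown because both genes lay at an even level in the tamoxifen-labelled libraries and because the CCAAT box and the octamer ATTTGCAT are known elements of H2B promoters. The capitals mark CCAAT on either strand and the octamer. Hist1h2bb held 3 CCAAT matches and 1 octamer, 90 to 83 bases before the start, and Hist1h2bj held 5 CCAAT matches and no octamer by these letters. Among all promoters of this length, 33.8% held a CCAAT and 1.6% the octamer. The windows are chr13:23746484-23746733 for Hist1h2bb (RefSeq H2bc3) and chr13:22042948-22043197 for Hist1h2bj (RefSeq H2bc11), plus strand, GRCm38.p6.
Hist1h2bb: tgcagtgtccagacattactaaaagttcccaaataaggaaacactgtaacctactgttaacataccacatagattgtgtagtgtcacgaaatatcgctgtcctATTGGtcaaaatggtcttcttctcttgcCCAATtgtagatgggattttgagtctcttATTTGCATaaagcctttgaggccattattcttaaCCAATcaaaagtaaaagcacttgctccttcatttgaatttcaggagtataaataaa
Hist1h2bj: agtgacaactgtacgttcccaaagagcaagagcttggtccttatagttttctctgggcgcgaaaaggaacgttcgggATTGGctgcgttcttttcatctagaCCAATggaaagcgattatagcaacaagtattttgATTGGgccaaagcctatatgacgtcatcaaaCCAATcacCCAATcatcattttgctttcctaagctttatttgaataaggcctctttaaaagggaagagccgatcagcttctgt

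Bnip3 encodes a protein of the outer mitochondrial membrane that marks mitochondria for autophagy. It had 292, 259 and 242 normalised read counts in the oil-labelled libraries and 25.6, 173 and 128 in the tamoxifen-labelled ones. The oil-labelled libraries lay close together, with a mean of 264 ± 25.3 (SD, n = 3), and tamoxifen 1 was far below the other two. Without tamoxifen 1 the mean of the remaining pair was 1.76-fold below oil.

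Bnip3 was the only gene of the glycolysis and hypoxia list to meet the rule (0.188% of all rows met it). Of the 44 genes of that list with an oil mean of at least 50, 9 were lower without overlap (20.5%, against 10.5% of all rows) and 3 were higher (7.09% of all rows were). The list's median log2 ratio of tamoxifen 2 and 3 over oil was -0.14. Pgk1, a glycolytic enzyme, had 8865, 8421 and 8756 normalised read counts with oil and 6702, 6888 and 5700 with tamoxifen. Ddit4, an inhibitor of mTORC1 that is also induced by low oxygen, went the other way, with 504, 418 and 408 with oil and 2007, 928 and 1213 with tamoxifen. Both groups were separate in either gene, and both genes were named after their values were seen.

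The window before the start of Bnip3 (GRCm38.p6, chr7:138909507-138909756, minus strand) is printed with the core of the hypoxia response element, ACGTG, in capitals on either strand. The matches on the 2 strands overlap in a single CACGTG, which is also an E-box. Of all promoters, 16.6% held ACGTG and 6.02% held CACGTG.
Bnip3: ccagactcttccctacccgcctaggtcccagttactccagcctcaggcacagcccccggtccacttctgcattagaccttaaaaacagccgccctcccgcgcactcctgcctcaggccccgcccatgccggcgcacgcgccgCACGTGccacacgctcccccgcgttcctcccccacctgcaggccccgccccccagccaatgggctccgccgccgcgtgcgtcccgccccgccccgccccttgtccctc

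Tiparp, also called Parp7, encodes an enzyme that adds single ADP-ribose units to proteins. It is induced by the aryl hydrocarbon receptor and dampens that receptor and interferon signaling in turn. It had 204, 199.7 and 205 normalised read counts with oil and 20.4, 149.5 and 140 with tamoxifen. The oil-labelled values were the closest together of the 19 genes, with a coefficient of variation of 1.42%. Tamoxifen 1 rested on 16 reads and lay far below the other two, and the gene ranked last once that library was left out of the ranking.

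Other genes of the aryl hydrocarbon receptor pathway were named after their values were seen. Nqo1, a quinone reductase that the receptor can induce, had 2622, 2737 and 2511 normalised read counts with oil and 1451, 2480.3 and 2337 with tamoxifen. Its groups did not overlap, with a gap of 1.01-fold, and tamoxifen 1 was the lowest. Cyp1a1, the classical target, had 280.3, 337 and 373 normalised read counts with oil and 234, 379 and 257 with tamoxifen, with overlapping groups. Ahr itself was at 0 in the oil-labelled libraries and at 8.95, 1.01 and 4.55 in the others, near the level of single reads. The window of Tiparp (GRCm38.p6, chr3:65528197-65528446, plus strand) is printed with GCGTG, the core of the xenobiotic response element, in capitals on either strand, and 28.2% of all promoters held it.
Tiparp: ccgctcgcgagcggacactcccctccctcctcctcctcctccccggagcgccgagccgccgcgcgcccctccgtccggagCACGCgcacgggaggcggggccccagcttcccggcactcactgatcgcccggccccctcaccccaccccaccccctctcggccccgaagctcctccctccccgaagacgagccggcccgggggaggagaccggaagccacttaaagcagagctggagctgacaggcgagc

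Shisa6, a transmembrane partner of AMPA receptors in neurons, had the widest gap of the set at 2.22-fold. It had 395, 442 and 422 normalised read counts in the oil-labelled libraries and 75.4, 178 and 102 in the tamoxifen-labelled ones. The mean was 419.9 ± 23.4 (SD, n = 3) with oil and 118 ± 53.2 (SD, n = 3) with tamoxifen. The distance between the groups was larger than the range within either.

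Gkn3, a gastrokine secreted by stomach mucosa, had 268, 566 and 289 normalised read counts with oil and 125, 203 and 65.5 with tamoxifen. Dazl, an RNA-binding protein of germ cells, had 301, 287 and 276 with oil and 47.3, 206 and 146 with tamoxifen. Gkn3 was uneven in both groups and passed with a gap of 1.32-fold, whereas Dazl was even with oil and spread out with tamoxifen.

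Tppp3, a tubulin polymerization-promoting protein that bundles microtubules, had 263, 84.9 and 143 normalised read counts with oil and 60.1, 8.08 and 55.5 with tamoxifen. In tamoxifen 2 it rested on 8 reads, with an exact 95% Poisson interval of 3.49 to 15.9 normalised read counts. Tppp3 was, with Hspa1a, the gene that varied most among the oil-labelled libraries, with coefficients of variation of 55.5% and 70.3%.

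Nebl encodes nebulette, an actin-binding protein of the sarcomere. It had 558, 959.9 and 601 normalised read counts in the oil-labelled libraries and 32, 411 and 147 in the tamoxifen-labelled ones. The 3 tamoxifen-labelled libraries spread over more than an order of magnitude, and its log2 ratio of tamoxifen 1 over oil, -4.47, was the lowest of the set.

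Fv1 is a gene derived from an endogenous retrovirus whose product blocks murine leukemia viruses after entry. It had 207, 304 and 223 normalised read counts with oil and 151, 153 and 158 with tamoxifen. The tamoxifen-labelled libraries were nearly equal, and the oil-labelled ones were spread by oil 2. With a gap of 1.31-fold, Fv1 was the gene nearest to the limit of the rule.

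Hebp1, a cytosolic heme-binding protein, had 205, 201 and 234 normalised read counts with oil and 152, 128 and 131 with tamoxifen. Both groups were even, and tamoxifen 1 was the highest of its group. Hebp1 overlaps Fam234b, a gene with a mean of 3287 normalised read counts on the opposite strand, only from 135197977 to 135198022 on chromosome 6. It also spans the antisense gene Gm19434 (135188480 to 135194960), which had a mean of 53.1 normalised read counts.

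Klrg1 encodes an inhibitory lectin-like receptor of NK and T cells. It had 88.9, 77.2 and 78 normalised read counts with oil and 21.7, 49.5 and 54.6 with tamoxifen. Many defining markers of lymphocytes were at 0: of 10 NK cell markers, 8 were at 0 in all 6 libraries, among them Ncr1, Klrb1c, Prf1 and Eomes, and of 12 T cell markers 6 were at 0, among them Cd3e and Cd8a. The NK list summed to 59.8 to 159 normalised read counts with oil and to 193 to 662 with tamoxifen, and the T cell list to 40.5 to 69.6 and 33.6 to 104. The NK sum came from Nkg7 and Klrk1 alone. Of 11 B cell markers 4 were at 0. The B cell list summed to 32.8 to 57.5 with oil and to 74.6 to 201 with tamoxifen. The mast cell and basophil list summed to 108463 to 120342 with oil and to 94793 to 146211 with tamoxifen, with overlapping groups. Summed in the same order, neutrophil markers had 94.5 to 123 and 197 to 261, and macrophage markers 686 to 852 and 956 to 1097. Dendritic cell markers had 1762 to 2130.1 with oil and 2158 to 5539 with tamoxifen. The erythroid, megakaryocyte and platelet, and endothelial and stromal sums overlapped between the groups. The part of any of these cell types in the level of Klrg1 was not tested.

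Rpl17-ps3 is a processed pseudogene of the ribosomal protein gene Rpl17. It had 97.9, 82 and 85.4 normalised read counts with oil and 51.1, 55.6 and 43.7 with tamoxifen. Its transcript was 99.6% identical to that of Rpl17 over 556 aligned bases, and Rpl17 had 31789, 27836 and 29907 with oil and 26286, 28505 and 29355 with tamoxifen, with overlapping groups. Reads of the parent gene that were assigned to the copy cannot be told apart from its own.

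The 4 gene models without a given name were 1700006J14Rik, 4921531C22Rik, Gm17655 and Gm26517. They came out of 512 RIKEN and Gm models with an oil mean of at least 50, and 0.188% of all 10109 such rows met the rule. The largest difference among the 4 models was that of 1700006J14Rik, with 252, 323 and 167 normalised read counts with oil and 70.3, 114 and 72.8 with tamoxifen. GENCODE lists it as antisense to Hmga2, which had a mean of 2.4 normalised read counts over the 6 libraries. The next model, 4921531C22Rik, had 83.5, 111 and 96.6 with oil and 60.1, 63.6 and 47.3 with tamoxifen. It overlaps the start of Taf4 on the opposite strand, and Taf4 had 670.1, 769 and 669 with oil and 801, 790.1 and 768 with tamoxifen.

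The protein-coding model Gm17655 had 77.2, 74.3 and 78 normalised read counts with oil and 12.8, 45.5 and 51.8 with tamoxifen. The lincRNA Gm26517 had 94.3, 108 and 109.6 with oil and 15.3, 67.7 and 68.2 with tamoxifen. In both, tamoxifen 1 was far below its group and rested on 10 and 12 reads. Gm26517 lies within Heatr5a on the opposite strand, a gene with a mean of 3437 normalised read counts, and without the strand setting of the counting the reads of overlapping genes cannot be told apart. Of the 19 genes, 9 overlap another gene of GENCODE vM21, and the share over all rows was not computed. The genes that overlap Hspa1a, Shisa6, Nebl and Bnip3 had means of at most 0.311 normalised read counts. Tiparp overlaps the pseudogene 4931440P22Rik on the opposite strand, which had a mean of 21.4 normalised read counts.

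The 19 genes were spread over 12 chromosomes, with no more than 3 on any. Their oil means ran from 71.2 to 726 normalised read counts with a median of 213, below the median of 953 over all 10109 rows, and 78.9% were protein coding, against 95.6% of all rows. The median length of the longest transcript was 1776 bases, against 3342. The median coefficient of variation among the oil-labelled libraries was 9.57%, against 6.88%, and 11 of the 19 varied by less than 1.3-fold with oil (57.9%), against 83.8% of all rows. Motif searches in the 250 bases before the start covered 15 promoters of 12 of the genes, and for the other 7 genes the RefSeq table held no promoter. A CCAAT was found in front of 8 of the 12 genes and in 33.8% of all promoters, and GCGTG in front of 7 and in 28.2%. ACGTG was found in front of 3 genes and in 16.6% of all promoters. GAANNTTC and CACGTG were found in front of 2 genes each and in 6.69% and 6.02% of all promoters. The core RUNX site TGTGGT, which AML1-ETO can bind through its RUNX1 part, was found in front of 3 of the 12 genes, 1700006J14Rik, Nebl and Hist1h2bb, and in 14% of all promoters. The cell cycle element CHR (TTTGAA) was found in front of 4 genes and in 16% of all promoters, the ETS site CCGGAAG in front of 1 and in 6.91%, and the GATA site AGATAA in front of 1 and in 9.99%. The interferon-stimulated response element was found in front of 1700006J14Rik and in 2.98% of all promoters, and the E2F site TTTCCCGC and the AP-1 site TGANTCA in front of none of the 12 genes and in 0.895% and 6.75%. A gene was counted when any of its promoters matched, and Nebl has 4, whereas the shares of all promoters are per promoter. Counted by promoter, CCAAT was found in 9 of the 15 and AGATAA in 2, and the other counts were the same as by gene. All motifs were searched on both strands, and a match says only that these letters are in the window.

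Over all rows tamoxifen 1 moved with GC content, its median log2 ratio over oil rising from -1.79 in genes under 40% GC to 0.85 in genes of 55% and over, while the mean of tamoxifen 2 and 3 stayed between -0.06 and -0.01. The 19 genes had a median GC content of 47.5%, near the 49.5% of all rows, and 5 were under 45% (26.3%, against 26.6%). Those 5, Nebl, Bnip3, Dazl, Gm17655 and Tiparp, were all among the 8 genes in which tamoxifen 1 lay more than 1 log2 unit below the mean of the other two, and these 8 had a median GC content of 41.0%. The other 11 genes had a median of 50.5% and none under 45%, and the ranges overlapped, at 37.0% to 47.7% in the 8 genes and 46.5% to 60.9% in the other 11.

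Correcting each library for GC content brought the median log2 ratio of tamoxifen 1 over oil in the 8 genes from -2.68 to -1.72, and in the other 11 from -1.21 to -1.65. After this correction 15 of the 19 genes still met the rule, and Rpl17-ps3, Dazl, Fv1 and Gm17655 did not. The log2 ratio of tamoxifen 1 over oil went from -2.58 to -0.34 in Gm17655 and from -2.61 to -0.42 in Dazl, above the corrected ratios of tamoxifen 2 and 3, -0.66 and -0.71. The median log2 ratio of tamoxifen 2 and 3 over oil was -0.83 with the correction and -0.81 without it.

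**Figure D4:**
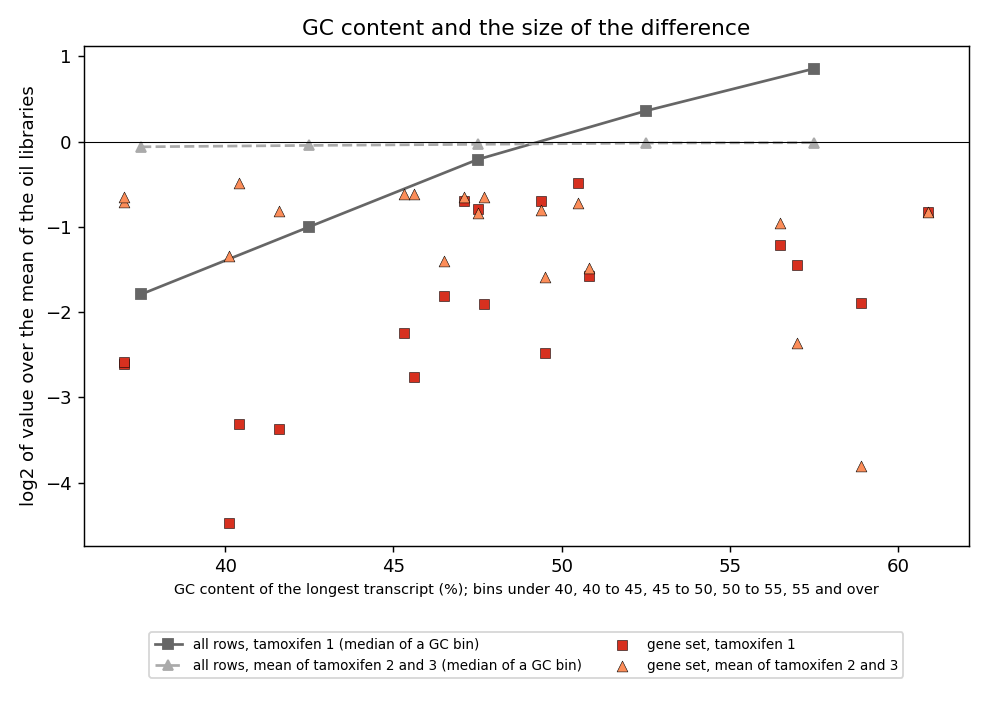
Log2 of tamoxifen 1 (squares) and of the mean of tamoxifen 2 and 3 (triangles) over the oil mean against the GC content of the longest transcript, for the 19 genes (coloured points) and as medians of all rows in 5 GC bins (grey, each drawn at a fixed place in its bin). The grey squares climb from -1.79 to 0.85 while the grey triangles stay near 0, and the 5 genes under 45% GC have tamoxifen 1 values between -4.47 and -2.58.

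Leaving out a library removes a condition of the rule, so the count of rows past the gap can fall only through the minimum oil mean. Leaving out oil 1, 2 or 3 left 36, 38 or 53 rows past the same gap, and leaving out tamoxifen 1, 2 or 3 left 39, 195 or 37. The mirror count, of higher rows, was 64 to 98 without 1 of the other libraries and 238 without tamoxifen 2, so tamoxifen 2, the tamoxifen-labelled library highest of its group in 11 of the 19 genes, limited the lists in both directions. Without oil 1, 9 histone rows passed in place of 3. Under upper-quartile scaling of the reads Hspa1a, Tppp3, 4921531C22Rik, Hebp1 and Fv1 no longer met the rule. At a gap of 1.5-fold only Shisa6 and Hist1h2bj were left. The genes just inside the limit were Fv1, 4921531C22Rik and Gkn3, with gaps of 1.311, 1.312 and 1.318, and the rows just outside it were Gm13262, Rnf222 and Uckl1, with gaps of 1.297, 1.294 and 1.292.

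**Figure D5:**
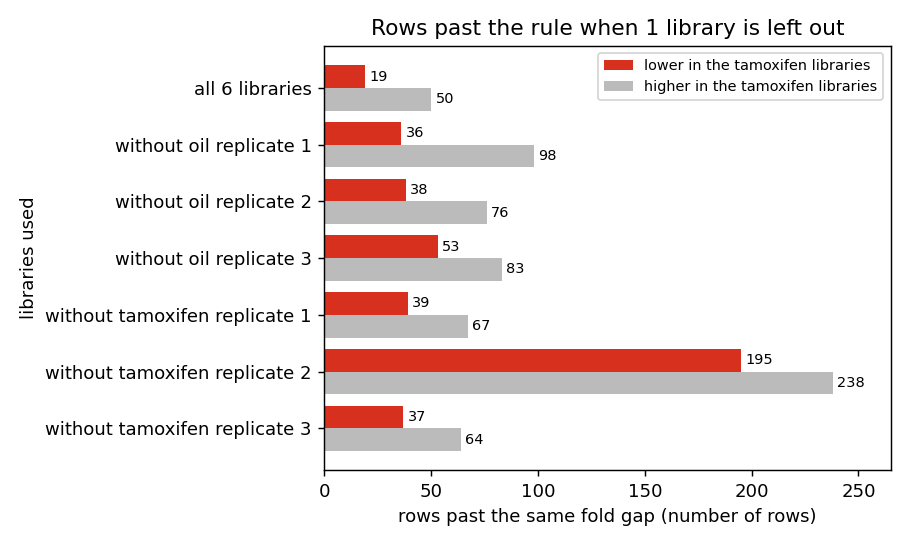
Number of rows past the 1.3-fold gap with all 6 libraries and with each library left out, for rows lower (red) and higher (grey) in the tamoxifen-labelled libraries. The counts run from 19 to 195 for lower rows and from 50 to 238 for higher rows, and both are highest without tamoxifen 2.

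Of 26 lists of genes with a shared function, 24 held none of the 19 genes, and so did all 10 lists of cell type markers and 8 of 10 gene families. Only 0.188% of all 10109 rows met the rule, so a count of 0 in a list of this size is near the share over all rows. In the T cell and B cell lists 0 genes reached the oil mean of 50, so these lists could hold none of the 19. The NK cell and neutrophil lists had 1 such gene each, the macrophage list 2, and the dendritic cell and the endothelial and stromal lists 3 each. Lists with many separate groups were among those that held none of the 19 genes. Of 71 genes of mitosis and G2/M, 28 were lower without overlap (39.4%, against 10.5% of all rows) and 0 met the rule (0.188% of all rows did). Their median log2 ratio of tamoxifen 2 and 3 over oil was -0.31. The type I interferon response held 0 of the 19, with 29 of its 48 genes higher without overlap, against 7.09% of all rows, and 0 lower. Of 26 p53 targets, 12 were higher without overlap and 1 was lower. Ribosomal proteins, splicing factors and DNA replication genes held 0 of the 19, and 1 of 79, 14 of 103 and 1 of 68 of them were lower without overlap.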

How the data were processed

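Bulk RNA-seq was analysed in 6 libraries, 3 labelled oil and 3 labelled tamoxifen, grouped by their sample labels. Per the submitters' processing notes and the study's methods, the authors aligned paired reads with STAR to mm10 and used DESeq2; the annotation, strand setting and filters are not given in the sources used here. The deposited table is called counts but holds a normalised signal, each gene's reads over the size factor of its library. In every library 100% of the values were whole multiples of the value of 1 read (tolerance 0.001), 0.898 to 1.28, and dividing by it recovered 19172471 to 23785143 reads. Of 55450 rows, 1832 without a gene name (0.0400% to 0.0614% of reads) were left out, 1402 split names were rejoined and 108 repeated names were kept as separate rows. Gene type, coordinates, length and GC content came from GENCODE vM21 (GRCm38), which held 52048 of the 53618 named rows, and promoters from RefSeq (GRCm38.p6).

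The 19 genes, the gene lists and the motifs were chosen with earlier results of these data known. Values are printed for every gene that met the rule, and the choice of other genes named with values was made with those values in view. The background over all genes was a fit with limma (3.58.1, under R 4.3.3) of the values on a log2(value + 1) scale, over the 12298 rows that reached 10 in 3 or more libraries, two-sided, with Benjamini-Hochberg adjustment at 0.05. Poisson intervals cover counting error only, because without molecular identifiers several reads can stem from 1 molecule. Alternatives were other fold gaps, minimum means, scalings and pseudocounts, a GC correction (loess, span 0.3), the replicate number as a block, edgeR (version 4.0.16) and DESeq2 (version 1.42.0) on the recovered reads, and each library left out. The limma fit was tested on simulated data with known changes. These data held no library that stood apart as tamoxifen 1 did, so they do not show how the fit handles such a library. Transcript identity was computed with biopython (version 1.88).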

Additional observations from a re-analysis of the deposited data

How the results depend on the processing

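With all 6 libraries 19 rows passed the rule. A gap of 1.2-fold gave 43 and one of 1.5-fold gave 2, a minimum mean of 20 gave 41, and leaving out 1 library gave 36 to 195, the most without tamoxifen 2. TMM scaling, upper-quartile scaling, scaling to library totals, GC correction and a minimum mean of 100 gave 20, 16, 22, 27 and 14, each within 1.5 times of the count as reported. All 19 genes passed under TMM scaling. A smaller gap, a lower minimum mean or a left-out tamoxifen-labelled library can only add rows, by construction, so these settings do not test the 19. Upper-quartile scaling lost Hspa1a, Tppp3, 4921531C22Rik, Hebp1 and Fv1, scaling to library totals lost Fv1, and the minimum mean of 100 lost Hist1h2bb, Rpl17-ps3, 4921531C22Rik, Gm17655 and Klrg1; the cause of the losses under the scalings was not tested. The median log2 ratio of the 19 genes for tamoxifen 2 and 3 over oil, -0.81, ran from -0.98 to -0.73 over the scalings and left-out libraries and was -1.04 with all tamoxifen-labelled libraries.

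Of all genes, limma called 0 lower and 0 higher, with 153 and 397 at an unadjusted p under 0.05. DESeq2 on the recovered reads called 2 lower and 69 higher, and the GC correction 0 and 2. Leaving out 1 library gave 0 to 3 lower and 0 to 38 higher, in both cases the most without tamoxifen 1. Without it, limma and edgeR each called Shisa6, Itga9 and Lrig1 lower, of which Shisa6 is among the 19 genes. In settings added after the data were seen, both without tamoxifen 1, edgeR called 3 lower and 43 higher and DESeq2 56 and 175. The replicate number as a block gave 0 calls in either direction and 94 lower at an unadjusted p under 0.05. The deviations of same-numbered libraries from their group means had correlations of -0.02, 0.06 and -0.15, which gave no sign of pairing. The group means include tamoxifen 1, which stood apart, so this check cannot exclude a pairing. No other setting changed the count of limma calls.

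Depth limits the lowest values, as for Hspa1a with 2 reads in tamoxifen 3 and Tppp3 with 8 in tamoxifen 2. With 3 mice per group the spread of each gene is known poorly.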
